A study of Mus musculus with 16 samples.

Results

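The cytosolic ribosomal protein genes encode the proteins of the large subunit (Rpl genes) and the small subunit (Rps genes) of the ribosomes that translate nuclear mRNAs. They were taken by their symbols: every gene whose symbol is Rpl or Rps with a number, or with the p of the P-stalk genes, and an optional suffix, leaving out symbols that end in -ps. This gave 89 of the 53342 genes in the tables. GENCODE M21 annotates 83 of them as protein coding and 6 as pseudogenes (Rpl32l, Rpl6l, Rps12l1, Rps3a2, Rps3a3 and Rps4l). The rule leaves out Rpsa, Fau and Rack1 among others, which are also ribosomal proteins or fused to one.

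RNA was sequenced from LSK cells, which are bone marrow cells sorted as B220-, CD3-, CD4-, CD5-, CD8-, Sca1+ and c-Kit+ and include the blood stem cells and early progenitors of the mouse. The 4 groups were 3 libraries of Gata2 +9.5(Ets)-/- mice given 5-fluorouracil (5-FU), 3 of wild-type mice given 5-FU, 5 of Gata2 +9.5(Ets)-/- mice given PBS and 5 of wild-type mice given PBS. The mutant allele replaces C with T within the Ets site of an intronic enhancer of Gata2, the +9.5 element, in every cell of the animal and on both chromosomes. All mice were on the C57BL/6J background and 8 to 14 weeks old, the 5-FU dose was 250 mg/kg, and cells were collected 10 days after injection. Each library was made from 3000 to 10000 cells, and the labels do not say that replicates are separate mice, so p-values measure the spread between these libraries, which may be technical.

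Ribosomal protein genes are among the most highly expressed genes of growing cells, and their products are needed in equal numbers, since each ribosome holds a single copy of nearly every one. Most of their mRNAs begin with a C followed by a run of pyrimidines, the 5′ terminal oligopyrimidine (TOP) tract, through which mTORC1 and the protein LARP1 control their translation. Blood formation is sensitive to their dose: loss of 1 copy of RPS19 and of several others causes Diamond-Blackfan anemia in humans, and free Rpl5 and Rpl11, bound to 5S rRNA, hold back Mdm2 and so stabilise p53. 5-FU kills dividing cells and blocks rRNA processing, and the surviving stem and progenitor cells rebuild the blood.

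The TOP tract is the sequence feature the genes share that the symbol rule did not use. RefSeq promoter windows (GRCm38.p6) were found for 64 of the 89 genes, and in 53 of these (82.8%) a C followed by 4 or more C or T began within 20 bases of an annotated start, against 53.3% of all 27025 genes in the table. With the stricter demand that the annotated start base itself opens the run, 14 of 64 (21.9%) met it, against 3.0% of all genes. The letters CCGGAAG, on either strand, stood in the 300-base window of 25 of the 64 (39.1%), against 9.9% of all genes; this motif was chosen after the windows had been seen. The windows below are 30 bases long with an annotated start at base 16, and capitals mark the pyrimidine run nearest to the start. For a gene with several annotated starts, a start with such a run at or near it was taken first. The choice of windows thus favours a run. They show the 2 genes that passed the test in a comparison (Rps27 and Rpl22l1), the paralog of the first, Rpl28, which rose once the length trend was removed, 3 members of known roles and 1 member without a tract. All but 1 hold a run of 5 to 13 pyrimidines, at places from 5 bases before to 3 bases after the annotated start.
Rps27, chr3:90213634-90213663, minus strand: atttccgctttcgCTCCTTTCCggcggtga
Rps27l, chr9:66946071-66946100, plus strand: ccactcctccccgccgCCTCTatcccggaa
Rpl22l1, chr3:28805493-28805522, plus strand: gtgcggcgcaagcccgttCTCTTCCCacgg
Rpl28, chr7:4792950-4792979, plus strand: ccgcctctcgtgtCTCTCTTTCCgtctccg
Rplp2, chr7:141447636-141447665, plus strand: tgcgtcagcgtCTTCCTTTCgccgccggac
Rpl35a, chr16:33056467-33056496, plus strand: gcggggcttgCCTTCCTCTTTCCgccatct
Rps6, chr4:86857353-86857382, minus strand: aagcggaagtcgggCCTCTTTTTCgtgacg
Rpl7l1, chr17:46782642-46782671, minus strand: gtgaggctgcgcaagcgcagtagctgaagc

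The deposited tables hold RSEM expected counts, which estimate the fragments per gene, and TPM, which are scaled to transcript length and to the library. Libraries held 19370153 to 28883365 expected counts. Immunoglobulin genes took between 0.04 and 50.2% of the counts of a library: 5.69 to 26.6% in mutant 5-FU, 0.04 to 0.33% in wild-type 5-FU, 3.67 to 50.2% in mutant PBS and 6.37 to 44.2% in wild-type PBS libraries. All 9 markers of LSK cells fixed for this work (among them Kit, Ly6a and Procr) averaged 1 CPM or more in each group. CPM are counts relative to the library total, scaled by TMM factors. After 5-FU 2 of the 9 passed the test given below as lower in the mutant than in wild type. For 5-FU against PBS, 2 passed as lower in the mutant, and 1 as higher and 1 as lower in wild type. Flt3, for one, averaged 20.9 CPM in mutant 5-FU, 123 CPM in wild-type 5-FU, 366 CPM in mutant PBS and 423 CPM in wild-type PBS libraries. Whether the make-up of the LSK cells differed was not tested. The 8 plasma cell markers summed to a mean of 10573 CPM in mutant 5-FU, 232 CPM in wild-type 5-FU, 24913 CPM in mutant PBS and 25520 CPM in wild-type PBS libraries, although the sort should remove such cells. The libraries with the highest immunoglobulin share, mutant PBS replicate 3 and wild-type PBS replicate 3, stand apart in the levels of ribosomal protein genes, and results are given with and without them. Gata2 RNA does not check the genotype, since the mutation lies in an enhancer: Gata2 stood at 169 to 208 CPM in mutant 5-FU, 192 to 224 CPM in wild-type 5-FU, 48.4 to 167 CPM in mutant PBS and 54.1 to 113 CPM in wild-type PBS libraries.

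Of the 89 genes, 87 had enough counts to be tested. Rpl10l, a testis-expressed copy of Rpl10, had 0 counts in all 16 libraries, and the pseudogene Rpl32l reached at most 10 counts. By TPM, which compares genes per length, Rps19 had a mean of 2257 over all libraries, Rpl32 1836, Rpl13 1735 and Rps18 1502, which are among the highest of the family. Rps19 stood at 2337 ± 332 TPM in mutant 5-FU, 2583 ± 600 TPM in wild-type 5-FU, 2199 ± 886 TPM in mutant PBS and 2071 ± 856 TPM in wild-type PBS libraries (SD, n = 3, 3, 5 and 5), and those groups overlap. The summed TPM of large-subunit genes was 1.27 to 1.38 times that of small-subunit genes in every library.

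Taken as a family, the genes held 3.54 ± 0.42% of the counts in mutant 5-FU, 2.77 ± 0.73% in wild-type 5-FU, 3.35 ± 0.41% in mutant PBS and 3.25 ± 0.86% in wild-type PBS libraries (SD). The order of these groups depends on the scale. As a share of TPM, wild-type 5-FU was highest, at 7.43%, against 6.52% in mutant 5-FU, 5.56% in mutant PBS and 5.13% in wild-type PBS. As a share of TPM outside immunoglobulin genes, wild-type 5-FU was lowest, at 7.47%, against 9.86% in mutant 5-FU, 10.3% in mutant PBS and 10.3% in wild-type PBS.

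On the log2 CPM scale, the median of the 87 genes was 8.27, 7.98 and 8.23 in the mutant 5-FU libraries and 7.47, 6.90 and 7.78 in the wild-type 5-FU libraries. It was 8.15, 8.53, 9.61, 7.77 and 7.94 in the mutant PBS libraries and 7.90, 8.48, 9.70, 7.96 and 7.72 in the wild-type PBS libraries. The wild-type 5-FU libraries are the 2 lowest of all and 1 in the lower range of the PBS libraries, and replicate 3 of each PBS group lies more than 1 log2 unit above every other library. Other genes of like length moved the same way. A gene was of like length if its mean effective length, the number of positions where a fragment can start, lay between 340.38 and 928.58 bases, the 10th and 90th percentiles of the family; 2107 other tested genes did. The family median was 5.67 to 6.29 log2 units above theirs in every library. Among the 434 of these that also had at least 68.1 CPM, the family median was 1.04 to 1.67 log2 units above, while it ran itself from 6.90 to 9.70.

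**Figure D1:**
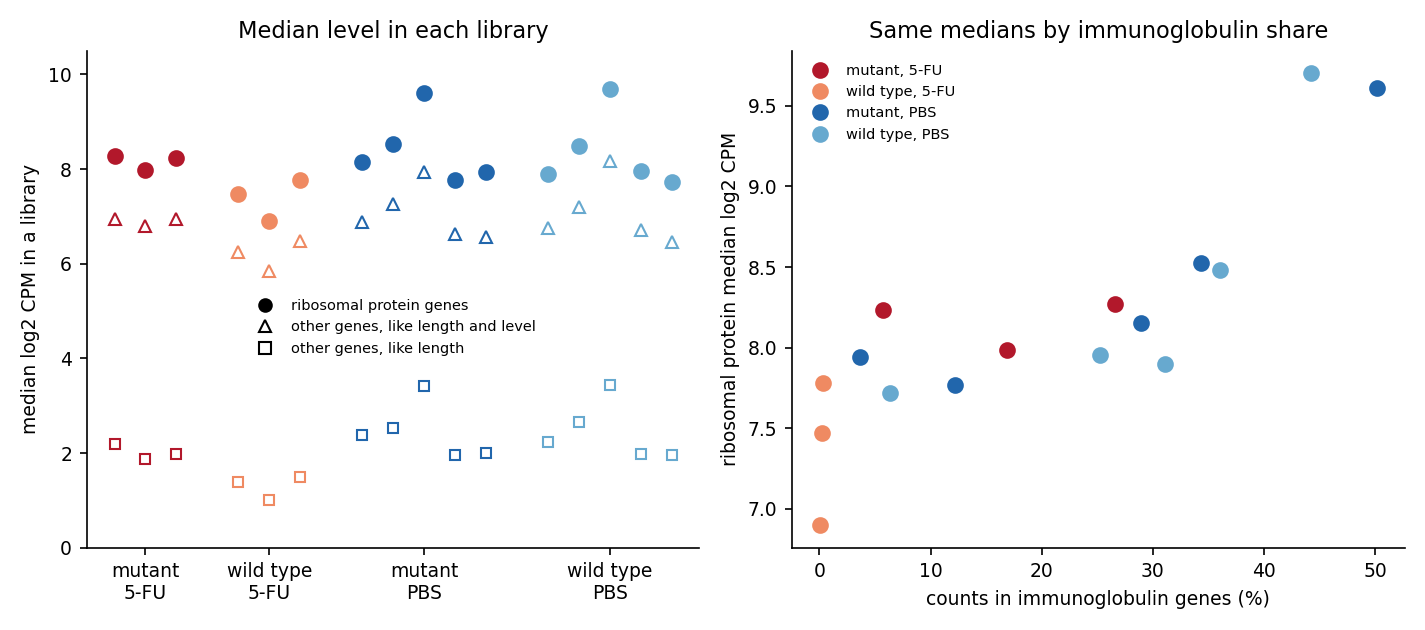
Left, median log2 CPM per library (1 point each, no error bars) of the 87 tested ribosomal protein genes (filled circles), of 434 other genes of like length and level (triangles) and of 2107 other genes of like length (squares), by group. Right, the family medians against the percent of counts in immunoglobulin genes. The 3 kinds of median rise and fall together over the libraries, and the 2 libraries with the highest immunoglobulin share (44.2 and 50.2%) have the highest family medians (9.70 and 9.61).

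The members followed this common level closely. The deviation of a gene from the family median of its library had a median SD over the 16 libraries of 0.17 log2 units, against an SD of 0.71 for the family median itself and a median of 0.24 for the 434 genes of like length and level. The Pearson r of log2 CPM with the median of the other members, over 16 libraries that share their depth and composition, was above 0.9 for 77 of the 87 genes and above 0.95 for 74. Rpl24 of the large subunit followed it most closely, with an SD of 0.06, then Rps13 with 0.07 and Rpl26 with 0.07. The 5 largest SDs belong to Rpl39l (1.44), Rpl3l (1.11), Rps3a3 (0.89) and Rps4l (0.85), which have few counts or are annotated as pseudogenes, and to Rpl7l1 (0.84), the longest transcript of the set with an effective length of 2506 bases.

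Among genes outside the family with a given name, leaving out numbered gene models, those whose log2 CPM was most like the family median over the 16 libraries were Ndufa6 (r = 0.997) and Cox4i1 (r = 0.992), subunits of the respiratory chain, Txndc17 (r = 0.995), a thioredoxin-like protein, Mrps33 (r = 0.994), a mitochondrial ribosomal protein, and Tma7 (r = 0.992). Their effective lengths run from 436.5 to 877.9 bases. Of the 100 genes most like the family, 93 had an effective length below 1000 bases, and their median of 538.87 bases is near the 547.84 of the family, against 2064.27 for all tested genes.

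The first comparison asks how the mutant differed from wild type after 5-FU, when progenitors regenerate. No ribosomal protein gene passed the test, edgeR's quasi-likelihood test over all 16482 genes with Benjamini-Hochberg adjustment, and none had an unadjusted p under 0.05; 1.95% of all tested genes passed. The smallest adjusted p was 0.29. The median log2 fold change of the family was 0.70, but it was -0.18 with limma on log2(TPM + 1). It was -0.27 with the writing of the sample code as a covariate and -1.34 with the immunoglobulin share as a covariate. Its sign thus depends on the unit and the model. On the TPM scale all tested genes had a median of -0.59 and genes of like length -0.21, so the family lay above both. The immunoglobulin share was 0.04 to 0.33% in wild-type 5-FU libraries and 3.67% or more in all others. That covariate largely separates wild-type 5-FU from the rest, so its fit cannot settle the direction. Under TMM 83 of 87 genes were above 0, and in 67 (77.0%) every mutant library was above every wild-type library, against 39.4% of all tested genes and 73.7% of the genes of like length and level without overlap. The median of all tested genes was 0.07, that of genes of like length 0.62. Rps18 of the small subunit had a log2 fold change of 1.01 ± 0.52 (SE, adjusted p = 0.31), Rps25 0.92 ± 0.45 (adjusted p = 0.29) and Rpl22l1 0.88 ± 0.44 (adjusted p = 0.29). Without the pair of PBS libraries of highest immunoglobulin share, which are in neither group of this comparison but enter the estimates of spread and scaling, 8 genes passed, with a family median of 0.68. In that fit 6.42% of all tested genes passed, 9.82% of those of like length and 13.6% of those of like length and level, so the count is near that of matched genes. These were Rps25, Rps21, Rpl12, Rpl13a, Rpl22l1, Rpl34, Rps27l and Rps18, all higher in the mutant, at log2 fold changes of 0.78 to 1.15. The immunoglobulin share was also higher in the mutant libraries, and 6 of 8 plasma cell, 5 of 8 B cell and 4 of 7 T and NK cell markers passed the test as higher there. B cell markers summed to 63.9 to 229 CPM in mutant 5-FU libraries, against 21.8 to 33.8 CPM in wild-type 5-FU libraries. The part of RNA from these cells in the result was not tested, and in bulk RNA fewer cells of a type and less RNA per cell cannot be told apart. The sample codes of all mutant 5-FU libraries are written with a leading zero and those of all wild-type 5-FU libraries without, so whatever that writing marks cannot be told apart from genotype here.

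Under PBS no difference between the mutant and wild type was found in this family. No gene passed, none had an unadjusted p under 0.05, and 0.0182% of all tested genes passed. The median log2 fold change was -0.02, equal to that of all tested genes (-0.02) and of genes of like length (-0.02), and 37 genes were above 0 and 50 below. Without both libraries of highest immunoglobulin share the median was 0.10, with 65 genes above 0 and 22 below, and again no gene passed. With all libraries no gene had groups without overlap, against 0.625% of all tested genes. The 3 smallest unadjusted p were those of Rps4l, at -0.51 ± 0.39 (SE), Rpl4, at 0.15 ± 0.19, and Rpl3l, at -0.54 ± 0.73, each with an adjusted p of 1.

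The third comparison asks what 5-FU did in wild-type LSK cells. Under TMM scaling Rps27 and Rpl22l1 fell, 2 of 87 genes, while 14.9% of all tested genes passed the test in either direction. Rps27 encodes a zinc-finger protein of the small subunit, and its gene lies at chr3:90212522-90213651 on the minus strand (GRCm38). It stood at 80.7, 45.1 and 97.3 CPM in wild-type 5-FU libraries, against 161, 227, 585, 175 and 170 CPM in wild-type PBS libraries. The groups did not overlap, and the PBS value of 585 CPM is that of replicate 3. Its log2 fold change was -1.83 ± 0.52 (SE, adjusted p = 0.030). Rpl22l1 encodes a paralog of Rpl22, a large-subunit protein that T cell development needs in mice, and lies at chr3:28805436-28807424 on the plus strand. It stood at 43.3, 23.3 and 47.6 CPM in wild-type 5-FU libraries, against 61.6, 83, 176.5, 70.8 and 63.8 CPM in wild-type PBS libraries, again without overlap. Its log2 fold change was -1.26 ± 0.41 (SE, adjusted p = 0.049). Rps19, the gene most often mutated in Diamond-Blackfan anemia, missed the threshold with a log2 fold change of -1.12 ± 0.37 (adjusted p = 0.053).

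The rest of the family lay below 0 with these genes under TMM, though not on every scale. The median log2 fold change was -1.13, against 0.56 with limma on log2(TPM + 1) and 1.32 with the immunoglobulin share as a covariate. In these fits Rpl22l1 was at 0.32 and 0.74 and Rps27 at -0.20 and 0.89. On the TPM scale all tested genes had a median of 1.01, genes of like length 0.50 and those of like length and level 0.73. The family thus lay below all tested genes on that scale too, but not below genes of like length. The immunoglobulin share covariate largely separates wild-type 5-FU from the other libraries, so its fit cannot settle the direction. Under TMM 86 of 87 genes were below 0, and 60 had an unadjusted p under 0.05. Genes of like length had a median of -0.92 and those of like length and level of -0.87, against -0.11 for all tested genes. Among genes of like length 14.0% passed. In 30 genes (34.5%) every 5-FU library was below every PBS library, against 31.8% of all tested genes without overlap, so that this share is near the background. Neither call held with each library left out in turn. No member passed without wild-type 5-FU replicate 1, 2 or 3, where 4.54, 3.41 and 8.52% of all tested genes did, and the log2 fold change of Rps27 was -1.89, -1.57 and -2.07. None passed without wild-type PBS replicate 3 either (10.7% of all tested genes), while 8 passed without wild-type PBS replicate 5 (19.6% of all tested genes), and 32 without mutant PBS replicate 3 (23.9%), which is in neither group and enters the estimates of spread and scaling. The tool and unit mattered as much: DESeq2 called 31 genes lower (27.9% of all tested genes), while limma on log2(TPM + 1) called 14 higher and none lower (46.2%). Without both libraries of highest immunoglobulin share, 17 genes passed, all lower, against 21.5% of all tested genes; they include Rps25 (-0.86 ± 0.19, adjusted p = 0.0088), Rps27 (-1.30 ± 0.29, adjusted p = 0.0092), Rpl22l1 (-0.87 ± 0.22, adjusted p = 0.016) and Rps19 (-0.82 ± 0.21, adjusted p = 0.017). The family median was then -0.57, and that of genes of like length -0.55. The wild-type libraries whose sample codes share a prefix, the meaning of which the labels do not give, are 1 of 5-FU and 2 of PBS. The family median between them was -0.06; the lone 5-FU library was assumed to vary like the other groups, and no member and 1.53% of all tested genes passed.

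Markers of other blood cells were also lower after 5-FU in wild type: all 6 neutrophil, 8 plasma cell, 8 B cell and 7 T and NK cell markers, 4 of 5 erythroid markers and 2 of 6 monocyte and macrophage markers passed as lower. Neutrophil markers summed to 0.91 to 9.54 CPM in wild-type 5-FU libraries, against 2680 to 19761 CPM in wild-type PBS libraries. Monocyte and macrophage markers summed to 22.9 to 133 CPM in wild-type 5-FU libraries, against 424 to 7707 CPM in wild-type PBS libraries. Nearly all of that PBS sum was Ly6c2, with a mean of 2899 CPM of a mean sum of 2992 CPM. Ly6c2 averaged 14.0 CPM in wild-type 5-FU libraries. There Ms4a6c, Ccr2, Csf1r, Adgre1 and Cd14 averaged 31.1, 14.5, 10.2, 0.4 and 0.7 CPM. In wild-type PBS libraries these 5 averaged 31.0, 21.9, 31.0, 6.5 and 2.2 CPM. B cell markers summed to 21.8 to 33.8 CPM in wild-type 5-FU libraries, against 128 to 776 CPM in wild-type PBS libraries. In wild-type 5-FU libraries 3 of the 8 B cell and 4 of the 7 T and NK cell markers were at 0. The part of these cells in the family's values was not tested.

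For 5-FU against PBS in mutant cells the test gave no call among the ribosomal protein genes, with 2.2% of all tested genes called. The median log2 fold change was -0.35, with 85 of 87 genes below 0, against -0.27 for genes of like length and -0.03 for all tested genes. With limma on log2(TPM + 1) it was 0.28, against 0.23 for genes of like length and 0.33 for all tested genes. Only Rpl3l, a muscle-expressed copy of Rpl3 that was near 0 here, had an unadjusted p under 0.05, at -2.59 ± 0.98 (SE, adjusted p = 0.24). It stood at 0.08, 0.04 and 0.15 TPM in mutant 5-FU libraries, against 0.38, 0.15, 0.27, 0.33 and 0.88 TPM in mutant PBS libraries. It was the only member of the family whose groups did not overlap in log2 CPM, against 9.99% of all tested genes. Rpl7l1, a paralog of Rpl7 with a role in ribosome assembly, was at 0.28 ± 0.18 (adjusted p = 0.59). Without the libraries of highest immunoglobulin share the median was -0.01. Neutrophil markers, of which 3 of 6 passed as lower, summed to 1.82 to 78.8 CPM in mutant 5-FU libraries, against 3312 to 22695 CPM in mutant PBS libraries. The 3 mutant 5-FU and 2 mutant PBS libraries whose codes share a prefix gave a median of -0.21 and no call.

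Whether the response to 5-FU differed between genotypes was tested as an interaction. No ribosomal protein gene passed, none had an unadjusted p under 0.05, and 0.589% of all tested genes passed. The median difference of the responses was 0.75 log2 units, with 84 of 87 genes above 0. Genes of like length had a median of 0.65 and all tested genes of 0.07. The family median was -0.27 with the writing of the sample code as a covariate and -1.43 with the immunoglobulin share as a covariate. With limma on log2(TPM + 1) it was -0.25, against -0.28 for genes of like length and -0.68 for all tested genes. The 3 smallest p were those of Rps27, at 1.19 ± 0.68 (SE, adjusted p = 0.55), Rps18, at 1.08 ± 0.66 (adjusted p = 0.57), and Rpl22l1, at 0.90 ± 0.55 (adjusted p = 0.57). Without both libraries of highest immunoglobulin share the median was 0.60, no gene passed and 25 had an unadjusted p under 0.05. DESeq2 and limma on log2(TPM + 1) made no call among the family in the interaction, in either mutant against wild-type comparison or in the mutant response to 5-FU.

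Transcript length ordered the fold changes of the family and of other genes alike. After 5-FU in wild type, other genes below 400 bases of effective length had a median log2 fold change of -1.91, those of 400 to 600 bases -1.08, those of 600 to 1000 bases -0.77, those of 1000 to 2000 bases -0.23 and those of 2000 to 4000 bases 0.21. The ribosomal protein genes in the first 4 of these bins had medians of -1.33, -1.16, -0.91 and -0.65, over 15, 34, 29 and 8 genes, and Rpl7l1 was alone in the fifth at 0.15. The mutant compared with wild type after 5-FU ran the other way, with medians of other genes of 0.96, 0.69, 0.55, 0.24 and -0.17 over those bins and of the family of 0.83, 0.74, 0.55 and 0.47, with Rpl7l1 at 0.20. Among the long members, Rpl4 of the large subunit (effective length 1426 bases) was at -0.15 ± 0.22 (SE) after 5-FU in wild type. Rpl3 (1197 bases) was at -0.48 ± 0.26 there, and both lay above the family median of -0.65 in their bin. Not every long member did: Rps3 (1436 bases) stood at 423, 286 and 480 CPM in wild-type 5-FU libraries. Its wild-type PBS libraries were all higher, at 517, 733, 1752, 601 and 537 CPM. The low adjusted p of Rps27 belongs to the shortest member, at 249.02 bases.

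**Figure D2:**
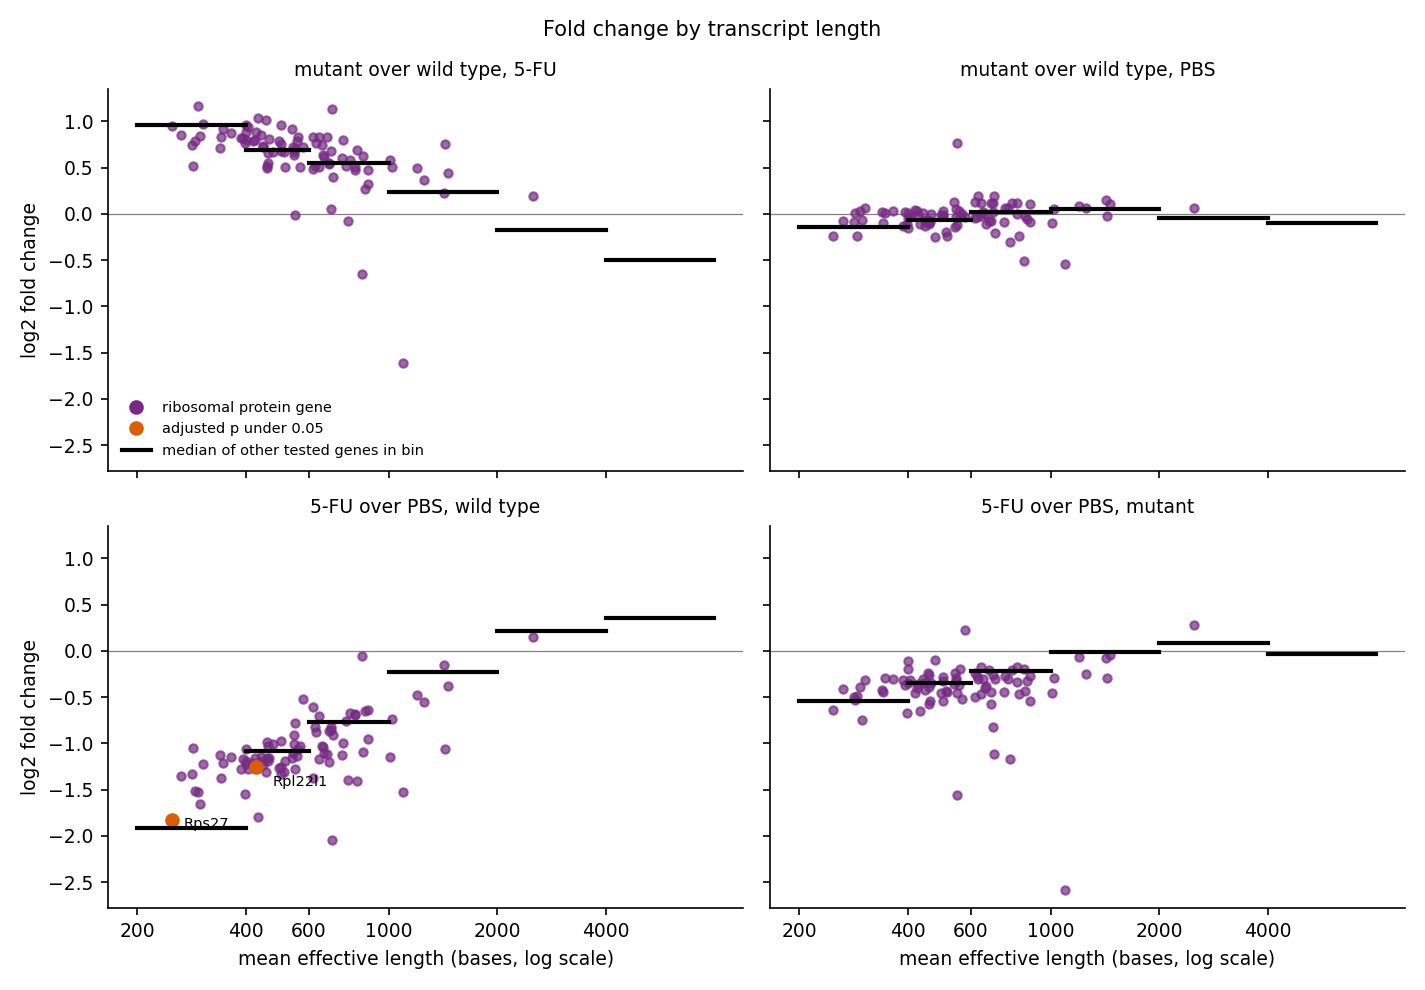
Log2 fold change (vertical) against mean effective length in bases (horizontal, log scale) of the 87 tested ribosomal protein genes (points), with the median of the other tested genes in each length bin (black bars; the first bin starts at 0 and the last has no upper end). In wild type after 5-FU the bars run from -1.91 below 400 bases to 0.36 above 4000 bases and most members lie along them; under PBS the bars stay between -0.14 and 0.05. No error bars are drawn.

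When the trend of counts with effective length was removed from each library, using genes outside the family, the family medians came close to 0 in all comparisons: 0.05 for the mutant against wild type after 5-FU, 0.02 under PBS, -0.04 for 5-FU in wild type, -0.05 for 5-FU in the mutant and 0.01 for the interaction. After 5-FU in wild type 2 genes then passed and 16.1% of all tested genes did, but Rps27 and Rpl22l1 did not (-0.42 ± 0.18, adjusted p = 0.12, and -0.18 ± 0.15, adjusted p = 0.41). Rpl28 of the large subunit rose, at 0.50 ± 0.13 (SE, adjusted p = 0.018), and so did Rpl29, at 0.37 ± 0.11 (adjusted p = 0.040). Rpl28 stood at 49.7, 46.0 and 74.8 CPM before this step in wild-type 5-FU libraries, against 67.5, 91.8, 308.0, 63.2 and 58.0 CPM in wild-type PBS libraries, and its log2 fold change there was -1.05 ± 0.53. The direction of these genes thus differs between the 2 scalings. The mean over 16 libraries put 39.9% of the counts of Rpl28 and its near-identical pseudogene copies on Rpl28 itself, which makes its value uncertain.

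**Figure D3:**
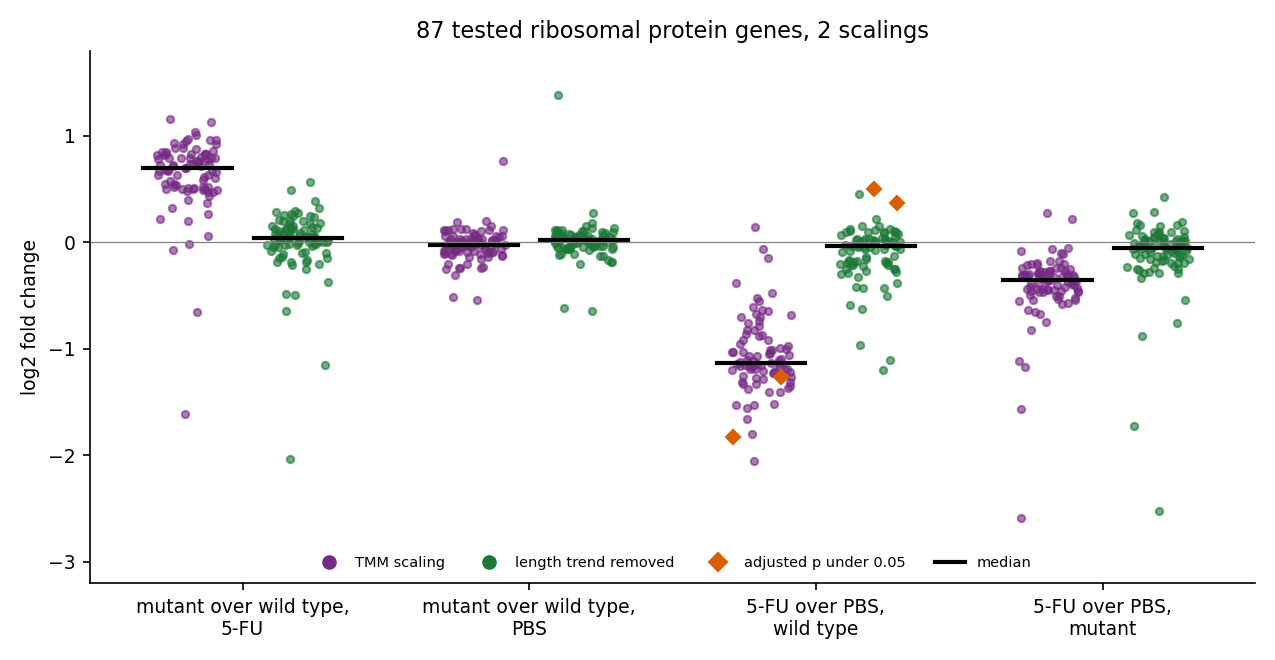
Log2 fold changes of the 87 tested ribosomal protein genes, 1 point each, in 4 comparisons, with TMM scaling (purple) and with the length trend removed (green); black bars are medians and diamonds mark an adjusted p under 0.05. The medians of 0.70, -0.02, -1.13 and -0.35 under TMM became 0.05, 0.02, -0.04 and -0.05.

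The members were also grouped by role. The 20 members whose human counterparts are mutated in Diamond-Blackfan anemia had median log2 fold changes of 0.73 for the mutant against wild type after 5-FU and of -1.15 for 5-FU in wild type, where Rps27 alone of them passed. The P-stalk proteins Rplp0, Rplp1 and Rplp2, which recruit elongation factors, were at -0.55 ± 0.31, -1.55 ± 0.57 and -1.37 ± 0.56 (SE) after 5-FU in wild type, with effective lengths that are longest for Rplp0, and none passed. Rpl5 and Rpl11, the 5S rRNA partners, were at -0.38 ± 0.41 and -0.82 ± 0.40 there, and none passed in any comparison. Rps6, the small-subunit protein phosphorylated downstream of mTORC1, had a 5-FU response of -0.21 ± 0.34 in the mutant (adjusted p = 0.87) and -0.68 ± 0.35 in wild type (adjusted p = 0.17). Large-subunit genes had a median of -1.12 and small-subunit genes of -1.17 after 5-FU in wild type.

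Several members have a paralog, and in most pairs the classical gene was the higher one per length. Rpl22l1 stood at 151.2, 194.8 and 245.1 TPM in mutant 5-FU, 230.8, 131.2 and 228.9 TPM in wild-type 5-FU, 123.2, 120.7, 126.0, 174.8 and 302.6 TPM in mutant PBS and 106.9, 127.2, 138.4, 168.1 and 261.6 TPM in wild-type PBS libraries. Its partner Rpl22 averaged 290 ± 78.7 TPM in mutant 5-FU, 337 ± 73.2 TPM in wild-type 5-FU, 234 ± 78.0 TPM in mutant PBS and 220 ± 74.2 TPM in wild-type PBS libraries (SD), and was higher than Rpl22l1 in all 16 libraries. Rps27l, a paralog of Rps27 and a target of p53, averaged 512 ± 158 TPM in mutant 5-FU, 497 ± 114 TPM in wild-type 5-FU, 347 ± 129 TPM in mutant PBS and 333 ± 100 TPM in wild-type PBS libraries. Rps27 averaged 664 ± 141 TPM in mutant 5-FU, 647 ± 183 TPM in wild-type 5-FU, 681 ± 218 TPM in mutant PBS and 757 ± 277 TPM in wild-type PBS libraries. Rps27 was higher than Rps27l in all 16 libraries. The ranges of the 2 genes over libraries overlap in each group except wild-type PBS, where every library had more Rps27 than the highest Rps27l value. Rpl36al was the exception, with group means of 685 to 769 TPM, above its partner Rpl36a with group means of 358 to 473 TPM. Rpl39l, a germ cell paralog of Rpl39, was under 1 TPM in 15 libraries and at 7.03 TPM in mutant PBS replicate 5, against 188 to 457 TPM for Rpl39.

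Rps4l, annotated as a transcribed processed pseudogene of Rps4x, varied in its own way. It stood at 5.83, 16.16 and 45.74 TPM in mutant 5-FU libraries, 46.95, 58.06 and 68.15 TPM in wild-type 5-FU libraries, 13.78, 14.52, 9.98, 22.83 and 14.10 TPM in mutant PBS libraries and 13.12, 18.23, 13.06, 25.44 and 48.03 TPM in wild-type PBS libraries. Each wild-type 5-FU library was above each mutant 5-FU library in TPM, though not in CPM, and above 4 of 5 wild-type PBS libraries. The log2 fold change of its counts was -0.65 ± 0.51 (SE, adjusted p = 0.48) for the mutant against wild type after 5-FU, while Rps4x was at 0.32 ± 0.49 (adjusted p = 0.74). Its Pearson r with the median of the other members was 0.29 over 16 libraries.

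**Figure D4:**
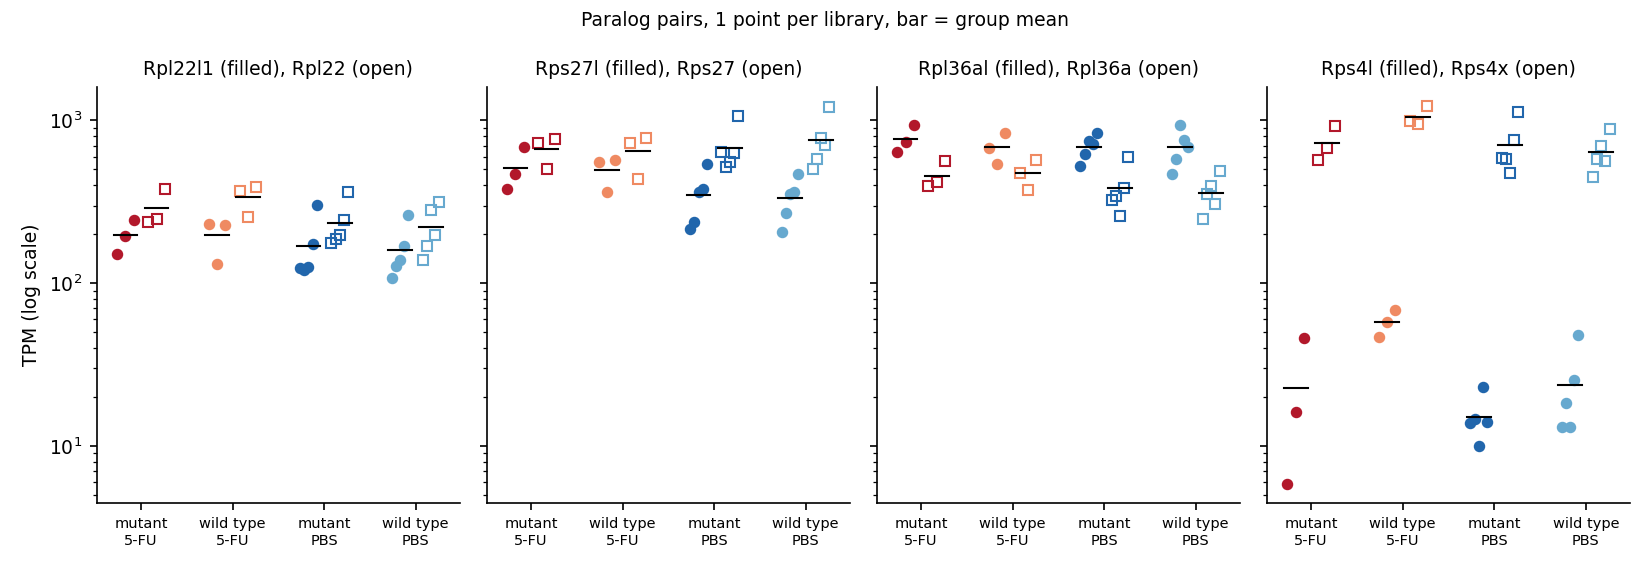
TPM (log scale) per library of 4 pairs, with the paralog or pseudogene as filled circles and the classical gene as open squares; horizontal bars are group means (n = 3, 3, 5 and 5). Rpl22 and Rps27 have higher group means than their paralogs, Rpl36al is above Rpl36a, and Rps4l lies between 5.83 and 68.15 TPM, below Rps4x in all groups.

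Processed pseudogenes of ribosomal protein genes can take reads that belong to the parent gene. A search with BLAST found 553 annotated pseudogene transcripts with at least 95% identity over at least 200 bases to 73 of the 83 protein-coding members, and 481 had counts. They held 10.07 to 11.25% of the counts of the family and its copies in a library, a narrow range that covers all 4 groups. In 7 members the copies held most of the counts. Rpl5 kept 4.31%, with 637 counts per library on average against 14087 on its copy Gm15500, which is identical over 1018 aligned bases. Rpl27 kept 18.3%, Rps12 36.5%, Rps23 39.2%, Rpl28 39.9%, Rpl12 44.1% and Rpl27a 45.5%. The main copy of Rps12 is Rps12l1, itself one of the 89 genes. Levels of these members, and of 13 more under 90%, are uncertain. With each copy's counts added to its gene, Rps27 (-1.83, adjusted p = 0.030) and Rpl22l1 (-1.26, adjusted p = 0.048) were again the 2 genes that passed after 5-FU in wild type, and Rpl5 moved to -0.75 (adjusted p = 0.17).

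**Figure D5:**
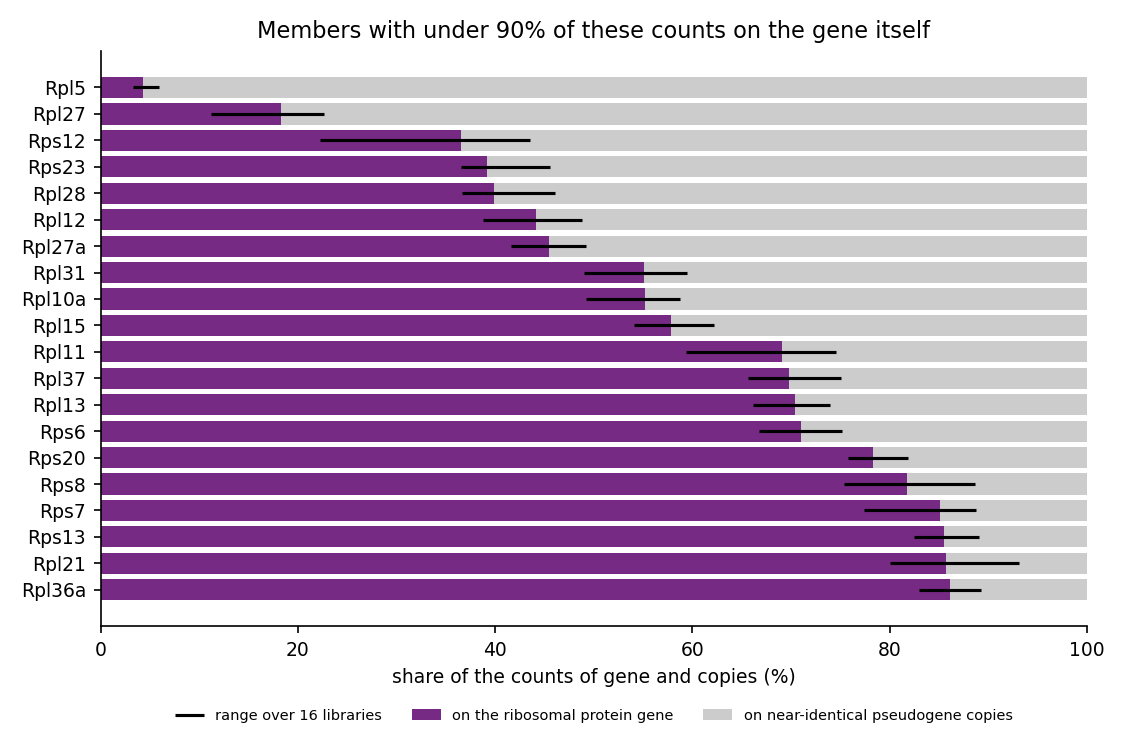
Share in percent (bars, 0 to 100) of the counts of a ribosomal protein gene and its near-identical pseudogene copies that lie on the gene (purple) and on the copies (grey), as the mean over 16 libraries, for the 20 genes under 90%; black lines are the range over libraries. Rpl5 is lowest at 4.31%, and 7 genes are under 50%.

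Other genes of ribosome supply, from lists drawn up with earlier results of these data known, are given beside the family as a description. After 5-FU in wild type, 14.9% of all tested genes passed under TMM and 16.1% with the length trend removed. Of the genes left out by the symbol rule, Rpsa was at a log2 fold change of -0.58 ± 0.31 (SE, adjusted p = 0.17) after 5-FU in wild type, Fau at -1.44 ± 0.53 (adjusted p = 0.072) and Rack1 at -0.56 ± 0.38 (adjusted p = 0.29). Of 78 mitochondrial ribosomal proteins none passed there under TMM, at a median of -0.43, and 10 passed, all higher, with the length trend removed, among them Mrpl2 (0.74, adjusted p = 0.0080) and Mrpl52 (0.47, adjusted p = 0.010). Of 7 snoRNA host genes with TOP starts none passed, at a median of -1.09, with Gas5 at -1.21 ± 0.42 (SE, adjusted p = 0.059). Of 14 translation factors with TOP mRNAs none passed under TMM, at a median of -0.02, and 1 passed as higher with the length trend removed. Of 23 initiation factors 3 rose and 2 fell under TMM, and 5 rose and 2 fell with the length trend removed. Under TMM Eif4g1, a scaffold of the cap-binding complex, was at 1.27 ± 0.41 (adjusted p = 0.046), and Eif4a2, an RNA helicase, at -1.01 ± 0.21 (adjusted p = 0.0062). Of 14 chaperones and importers of ribosomal proteins, 3 rose, the importins Ipo5, Ipo7 and Ipo9, at 1.07 ± 0.33, 0.89 ± 0.22 and 1.41 ± 0.41 (adjusted p = 0.042, 0.015 and 0.034); with the length trend removed Ipo9 alone of them passed (0.94, adjusted p = 0.033), against 0.59 for Ipo5 (adjusted p = 0.058) and 0.36 for Ipo7 (adjusted p = 0.11). Of 34 ribosome biogenesis genes, Utp20 of the small-subunit processome rose under TMM, at 1.41 ± 0.36 (adjusted p = 0.018). With the length trend removed, 3 of the 34 rose. Of 18 regulators of ribosomal protein synthesis, Rptor of mTORC1 rose, at 0.92 ± 0.30 (adjusted p = 0.049), but not with the length trend removed (0.51, adjusted p = 0.12). Of 10 genes of the p53 response to ribosomal stress none passed under TMM, and 1 passed as lower with the length trend removed. In the other 3 comparisons no gene of these lists passed under TMM.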

How the data were processed

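RNA-seq of 16 libraries of sorted LSK cells in 4 groups was used. Per the labels' protocols, RNeasy Micro RNA was turned into libraries using NuGEN's Ovation Ultralow kit. RSEM 1.3.1 and FastQC 0.11.2 with mm10/GRCm38 are named in the submitters' processing notes; no aligner or annotation release is named in the sources used. The deposited tables, per the file headers, hold the authors' expected counts, estimates of fragments per gene that are not scaled, and TPM, scaled to length and library, with FPKM and effective length beside them. All 53342 gene IDs were kept as deposited, and 53237 matched GENCODE M21, all 89 members with the same symbol.

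Expected counts were rounded, filtered with filterByExpr (minimum count 10, 16482 genes left) and scaled with TMM in edgeR 4.0.16. The quasi-likelihood test (robust, 1 mean per group, all 16 libraries) ran on the whole table, with Benjamini-Hochberg adjustment at a threshold of 0.05. A standard error is the fitted log2 change over the root of F. Log2 CPM values carry a prior count of 2. Immunoglobulin genes (429) were those whose gene type in GENCODE M21, matched by Ensembl ID, begins with IG_. Near copies were found with BLAST 2.17.0. To remove the length trend, a smooth curve of log2 counts against log2 effective length was fitted per library to genes outside the family and entered as an offset. Alternatives were RLE factors, DESeq2 1.42.0, limma 3.58.1 on log2(TPM + 1), no filter, the replicate number as a block, sample codes, immunoglobulin genes or their share, and each library left out. The scripts were tested on simulated data. The median member had 4393 or more counts in each library.

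Replicate numbers from the labels were checked for pairing. Deviations of equally numbered PBS libraries correlated at 0.165 to 0.569 in all 5 pairs. A fit with these numbers as a block left 0 calls for the mutant against wild type under PBS. The values given for that comparison come from the fit without the block. These pairs share the writing of the sample code but no code prefix. Replicate 3 has the highest immunoglobulin share in both PBS groups, and what links the pairs was not tested. In the other comparisons not all pairs exceeded 0.1.

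The named genes follow a rule: in each comparison up to 5 called members with the largest change in each direction, or the 3 of smallest p; a set list of role and paralog genes; and members of highest and lowest TPM and of largest and smallest deviation. Rps25 and other genes that passed without some libraries, Rpl28, Rpl29 and the members with near copies were named after their values were seen. Not every gene that the rule or the lists name is reported here. The members and all lists were chosen with earlier results of these data known.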

Additional observations from a re-analysis of the deposited data

Results flagged for a closer look

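Over part of the members and family values, 76 sets of 5 PBS libraries were examined. Among them 10 had 1 library farther from the rest than Dixon's 95% limit (0.71 of the group's range for 5 libraries). Chance gives this in about 1 of 20 sets. The sets do not cover all 87 tested members. Every flagged gene is a named one, and some genes were named for their calls or deviations. The rate thus does not stand for the whole family. All 10 flagged values are the highest library of the group, in log2 CPM. Of these, 9 lie in replicate 3 of a PBS group, the libraries of highest immunoglobulin share: in mutant PBS replicate 3 Rpl41 (10.48), Rps27a (9.70) and Rps27l (8.92), and in wild-type PBS replicate 3 Rpl22l1 (7.46), Rpl41 (10.35), Rpl5 (5.83), Rps27 (9.19), Rps27a (9.67) and Rps6 (10.67). The remaining one is Rpl39l in mutant PBS replicate 5 (1.41), a gene under 1 TPM in the other libraries. Members of 1 library share its depth and composition, so these are not independent. The part of the immunoglobulin share in them was not tested.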

How the results depend on the processing

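Among values of the named members over the alternatives, 61 gained and 25 lost a call, and 9 that were called in at least 1 of the fits compared turned direction, these 9 all after 5-FU in wild type. Sign changes of values not called are not in these counts: after 5-FU in wild type 1 of 87 members was above 0 under TMM, against 84 with limma on log2(TPM + 1) and 84 with the immunoglobulin share as a covariate. With limma on log2(TPM + 1), Rpl22l1 was at 0.32, Rpl3 at 1.04, Rpl4 at 1.34, Rplp0 at 0.99, Rps4l at 1.41, Rps4x at 0.76 and Rps6 at 0.90; with the immunoglobulin share as a covariate, Rpl22l1 was at 0.74 and Rps27 at 0.89. The cause was not tested.

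Without the 2 libraries of highest immunoglobulin share, an alternative chosen after seeing the data, as was pooling of near copies, 8 genes passed for the mutant against wild type after 5-FU. In the wild-type response to 5-FU 17 passed; 31 passed with DESeq2 (lower; 27.9% of all tested genes), 14 with limma on TPM (higher; 46.2%), 1 with RLE factors (15.5%), 1 with no filter (6.18%), and 0 with the code writing covariate (6.14%), within a code prefix (1.53%; 1 library of 5-FU) or with the immunoglobulin share covariate (0.133%).

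The family median for the mutant against wild type after 5-FU became -0.18 with limma on TPM, -0.27 with the code writing covariate, 0.045 with the length trend removed and -1.34 with the immunoglobulin share covariate. For 5-FU in wild type it became 0.56 with limma on TPM, -0.056 within a code prefix, from 1 library of 5-FU and 2 of PBS, -0.037 with the length trend removed and 1.32 with the immunoglobulin share. For 5-FU in the mutant it became 0.28 with limma on TPM. For the interaction it became -0.25, -0.27, 0.010 and -1.43 under limma on TPM, code writing, length trend and immunoglobulin share. Code writing is the same in all mutant 5-FU libraries and the opposite in all wild-type 5-FU libraries, so its covariate rests on the PBS libraries. The immunoglobulin share covariate is limited too. The share was 0.04 to 0.33% in wild-type 5-FU libraries and 3.67% or more in all others. Fits with it therefore cannot settle the direction in comparisons with wild-type 5-FU.

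With a library left out, the median ran from 0.50 to 0.93 for the mutant against wild type after 5-FU, -0.38 to 0.46 under PBS, -1.34 to -0.57 for 5-FU in wild type, -0.48 to -0.01 for 5-FU in the mutant and 0.20 to 1.09 for the interaction; calls ran from 0 to 32 for 5-FU in wild type and were 0 in the others.

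With replicate numbers as a block, 79 genes passed for 5-FU in wild type, all lower (44.4% of all tested genes), although the numbers do not pair those groups (pair correlations -0.158 to 0.168); the block changed no other count of calls. As the share of counts outside immunoglobulin genes, the family held 4.25% in mutant 5-FU, 2.78% in wild-type 5-FU, 4.81% in mutant PBS and 4.79% in wild-type PBS; as the share of TPM it held 6.52% in mutant 5-FU, 7.43% in wild-type 5-FU, 5.56% in mutant PBS and 5.13% in wild-type PBS.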
